A study of Mus musculus with 8 samples.

Results

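Lipid binding and chylomicron genes were followed in the colon of mice with acute graft-versus-host disease. The set held 10 genes, chosen by name, and all 10 were measured, each by 1 probe set, among 19505 genes in the table. They were 5 fatty acid binding proteins (Fabp1, Fabp2, Fabp4, Fabp5 and Fabp6), 3 apolipoproteins (Apoa1, Apoa4 and Apob), the triglyceride transfer protein Mttp and the lipid droplet coat protein Plin2. The recipients were wild-type BALB/c mice that had been lethally irradiated and transplanted with bone marrow and T cells of C57BL/6 donors on day 0. By mouth, 4 of them received PBS and 4 received hBD-2, human beta-defensin 2, at 1.2 mg/kg, from day 0 to day 7, and colon tissue, not separated into cell types, was taken on day 7. Every mouse thus carried the disease, the irradiation and the transplant, no healthy colon was analysed here, and an animal's age was not given in the sources used here. Each mouse had 1 array, and precision is limited by there being 4 in each group. Values are log2 expression after RMA, a normalization that makes the distributions of all arrays alike, and differences are log2 differences, hBD-2 minus PBS.

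Dietary fat reaches the blood through absorptive epithelial cells. Fatty acids that enter the cell are held in solution by fatty acid binding proteins, are rebuilt into triglycerides, and are then either stored in droplets coated by perilipins or loaded by Mttp onto Apob to form chylomicrons, which also carry Apoa1 and Apoa4. This route runs mainly in the small intestine. Fabp1 is best known from liver and proximal intestine, Fabp2 from the intestinal epithelium and Fabp6, the ileal bile acid binding protein, from the last part of the small intestine, whereas Fabp4 is typical of adipocytes, macrophages and capillary endothelium, and Fabp5 of keratinocytes, macrophages and endothelium.

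A pair of arrays, hBD-2 1 and hBD-2 3, differed from the remaining 6 over the whole table. Their scores on principal component 1 (34.6% of the variance of all genes) were 25.2 and 25.4, against -14.9 to -2.45 for the others. The mean of 8 posterior colon position genes, centred on each gene's mean, was 1.30 and 1.02 in these arrays, against -0.56 to -0.099 in the other 6. Both arrays lay below all others in 8.06% of genes and above all others in 6.41%. Among the members this was so of Fabp2 (below) and of Fabp6 (above, by a narrow margin). The means of 11 measured colonocyte markers ran from 6.02 to 12.77. Their centred list mean lay between -0.17 and 0.21 in every array, and that of 8 pan-epithelial markers between -0.056 and 0.049. Centred values show only differences between arrays, so these ranges do not test the label of colon tissue. A list mean can also hide single genes. Of the 11 colonocyte markers, 5 were above all other arrays in hBD-2 1 and hBD-2 3, and 1 was below. Signal over background cannot be read from the deposited values, so no marker can be called absent.

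None of the 10 members passed an adjusted p of 0.05 in the comparison of hBD-2 with PBS (limma, adjusted over 19505 genes), where 0.0410% of all genes passed. Adjusted p-values ran from 0.141 for Fabp5 to 0.826 for Mttp. At an unadjusted p under 0.05, Fabp4 and Fabp5 were lower and Fabp6 was higher, 3 of 10 members, against 5.98% of all genes lower and 5.85% higher. That count of 3 dropped to 1 when PBS 1, hBD-2 1, or both hBD-2 1 and 3 were left out, and reached 4 when PBS 4 or hBD-2 2 was left out. In direction, 4 members were lower and 6 higher. Their median difference was 0.061, beside 0.012 over all genes. Fabp5 was the 1 member whose groups did not overlap, lower in hBD-2, which held for 3.60% of all genes. No member was separated in the higher direction, as 2.80% of all genes were.

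**Figure D1:**
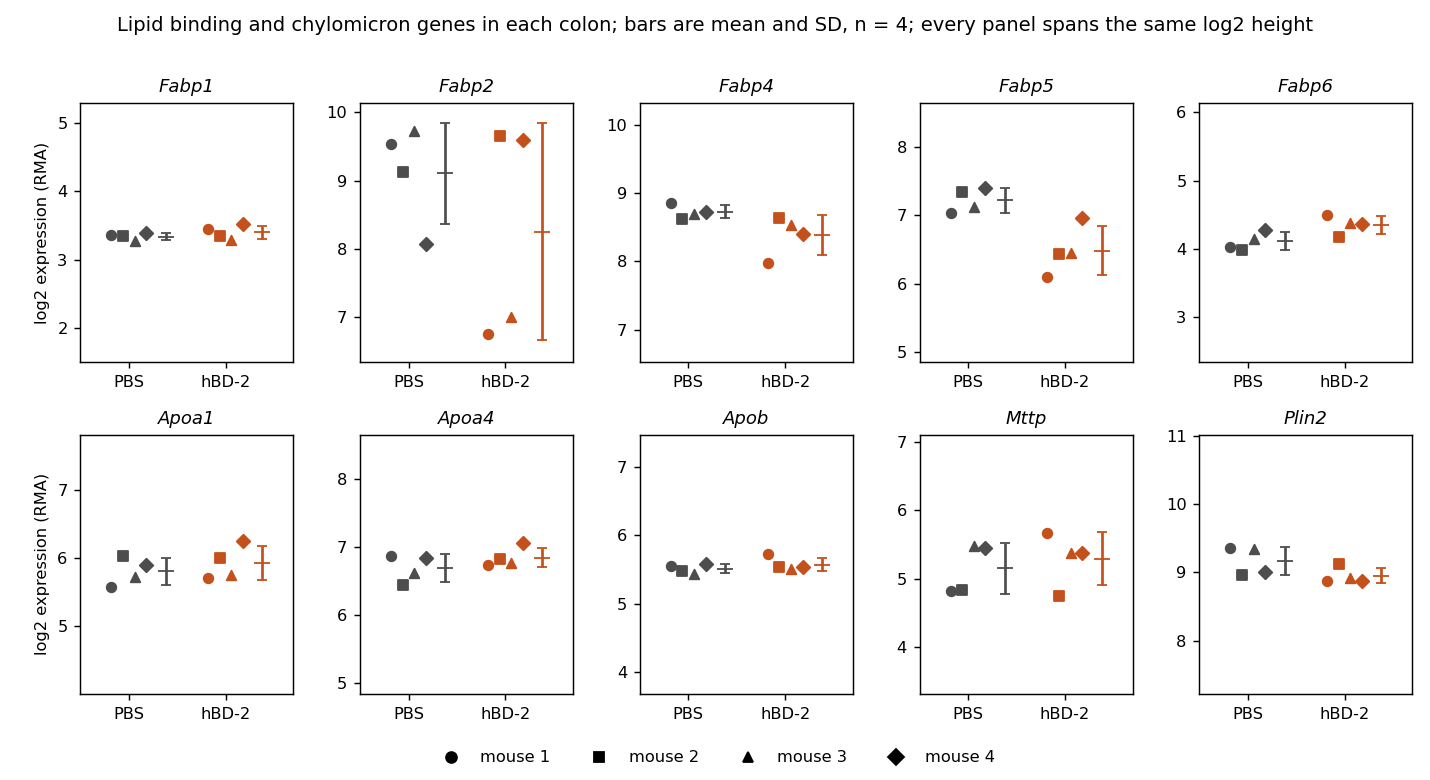
The log2 expression of each of the 10 genes in the 4 PBS mice (grey) and the 4 hBD-2 mice (orange), 1 symbol per mouse, with the mean and SD of the group beside them. Fabp2 splits the hBD-2 mice into 6.75 and 7.00 against 9.60 and 9.65, Fabp5 lies lower in all 4 hBD-2 mice, and Fabp1 and Apob hardly vary.

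Fabp2, the intestinal fatty acid binding protein, was the member that differed most among mice of the same group. Its levels in PBS mice 1 to 4 were 9.53, 9.12, 9.72 and 8.07. In hBD-2 mice 1 to 4 they were 6.75, 9.65, 7.00 and 9.60. The hBD-2 group therefore held both the lowest levels of the 8 mice and levels as high as those of PBS, and the groups overlapped. Within the hBD-2 group the highest mouse exceeded the lowest 7.47-fold, and within the PBS group 3.14-fold. The SD was 0.74 among PBS and 1.59 among hBD-2 mice (n = 4 each), each larger than that of 99.9% of all genes in the same group. The difference between the group means was -0.86 (SE 0.68, 95% interval -2.37 to 0.65, adjusted p = 0.643 by limma), about 0.54 times the larger SD. With that pair left out, a setting chosen after seeing the data, the difference turned to 0.52 (adjusted p = 0.619). A change of sign in that setting occurred in 18.1% of all genes and, among the members, in Fabp2 and Mttp.

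The levels of Fabp2 stood beside those of colon position genes. Hoxb13, a homeobox gene of the posterior body axis, was at 9.06 and 9.32 in hBD-2 1 and hBD-2 3, where Fabp2 was lowest, and at 4.73 to 7.22 in the other 6 mice. PBS 4, with the lowest Fabp2 of its group, had Hoxb13 at 6.76. PBS 3, with the highest Fabp2 of all mice, had it at 7.22, so the order of Hoxb13 was not the reverse of that of Fabp2 throughout. Of the 8 posterior position genes 5 were higher in hBD-2 1 and hBD-2 3 than in all other mice, namely Hoxb13, Hoxd13, Scnn1b, Scnn1g and Insl5. Hoxa13, Hoxd11 and Hoxd12 were not. Hoxa13 was at 8.33 and 8.26 in the pair and at 8.39 in PBS 3. Hoxd12 was at 5.87 and 5.75 in the pair and at 5.86 and 5.89 in hBD-2 2 and hBD-2 4. Hoxd11 was at 6.15 and 5.92 in the pair, highest in PBS 1 and hBD-2 2 (6.59 in each), and lowest in PBS 3 and PBS 4 (4.61 and 4.85). Whether colon position accounts for any part of the Fabp2 values was not tested. The labels do not say which stretch of the colon was taken.

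The genes with the profile closest to that of Fabp2 over the 8 arrays were Cyp2c65, a cytochrome P450 gene, Pla2g4c, a phospholipase A2 gene, and Isx, an intestine-specific homeobox gene. Likeness was measured as the root mean square difference between gene-centred log2 profiles, which was 0.43 for Cyp2c65, 0.44 for Pla2g4c and 0.46 for Isx. Isx was at 5.45 and 5.52 in the pair that stood apart, and at 7.18 to 8.40 in the other mice. The profiles of the other members lay further from Fabp2. Fabp5 was the nearest of them, followed by Fabp4 at 1.03, and Mttp was the furthest at 1.38. The measure also depends on how widely each gene varied, so it does not compare shape alone. No other member split the hBD-2 mice as widely as Fabp2. In Apoa1 the pair was also lower, at 5.71 and 5.75, against 6.00 and 6.24 in hBD-2 2 and hBD-2 4. The PBS mice spanned 5.57 to 6.03 in Apoa1. In Apoa4 the pair was at 6.74 and 6.77, against 6.82 and 7.05 in hBD-2 2 and hBD-2 4.

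**Figure D2:**
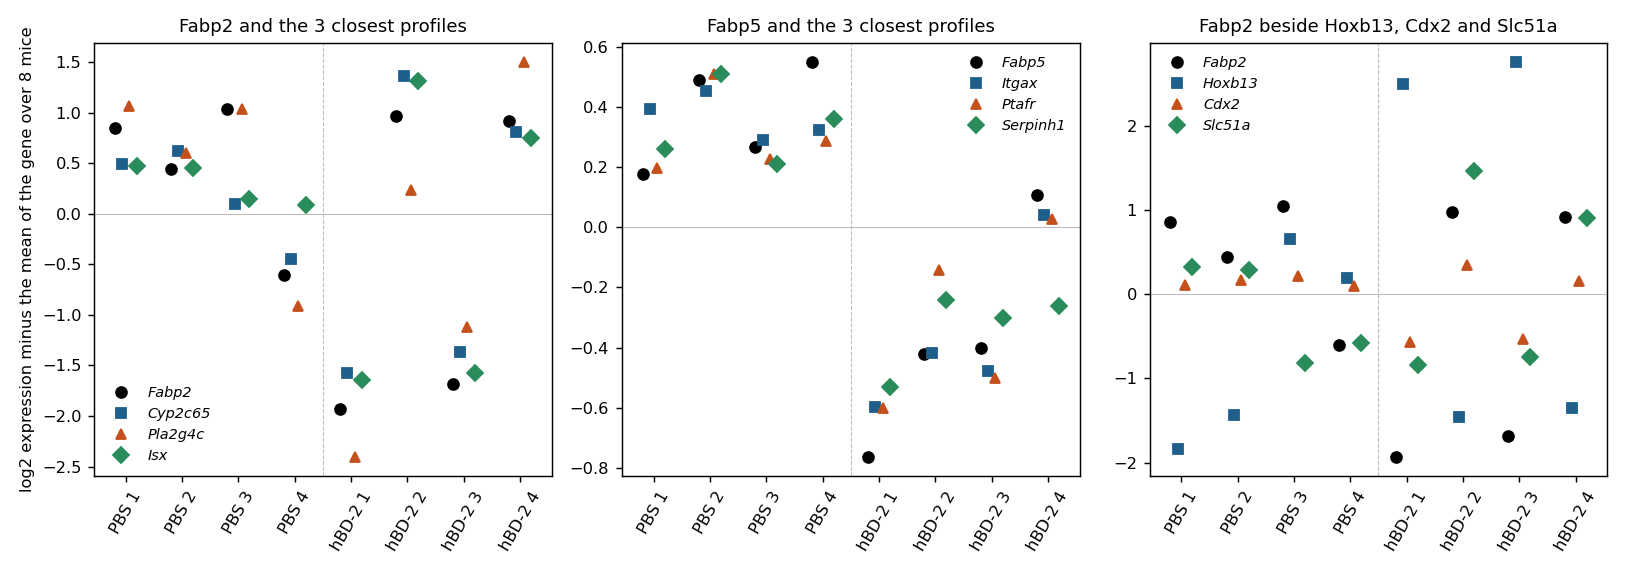
Log2 expression minus the gene's mean over the 8 mice, 1 symbol per gene and mouse, with the PBS mice left of the dashed line. The left and middle panels show Fabp2 and Fabp5 with their 3 closest profiles, and the right panel shows Fabp2 beside Hoxb13, Cdx2 and Slc51a, which were chosen after their values were seen: where Hoxb13 reaches 9.06 and 9.32, Fabp2 is at 6.75 and 7.00.

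The sequence before the start of Fabp2 is shown with those of Fabp1 and Fabp6, because these 3 genes of a single family are the ones known from absorptive epithelium and only Fabp2 split the mice. Fabp1 and Fabp6 read low on the arrays, with higher means than 2.1% and 14.2% of genes, so a like fall in them could be missed. The windows are the 250 bases before the RefSeq start on GRCm38.p6, chr3:122894822-122895071 on the plus strand for Fabp2, chr6:71199629-71199878 on the plus strand for Fabp1 and chr11:43601563-43601812 on the minus strand for Fabp6. Capitals mark matches, on either strand, to TATAAA (the TATA box), to TTTATNG (a motif of caudal-type homeobox factors such as Cdx2) and to AGGTCA (a core element of nuclear receptors).
Fabp2: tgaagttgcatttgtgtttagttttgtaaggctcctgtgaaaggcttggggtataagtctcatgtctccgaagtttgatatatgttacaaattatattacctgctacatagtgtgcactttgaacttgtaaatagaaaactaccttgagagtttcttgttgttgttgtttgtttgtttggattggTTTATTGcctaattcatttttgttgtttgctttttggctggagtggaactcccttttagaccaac
Fabp1: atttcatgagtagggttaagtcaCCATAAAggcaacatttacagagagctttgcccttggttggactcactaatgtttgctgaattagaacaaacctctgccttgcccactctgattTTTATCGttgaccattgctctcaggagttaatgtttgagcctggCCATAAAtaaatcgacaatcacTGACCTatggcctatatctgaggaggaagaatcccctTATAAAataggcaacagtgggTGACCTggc
Fabp6: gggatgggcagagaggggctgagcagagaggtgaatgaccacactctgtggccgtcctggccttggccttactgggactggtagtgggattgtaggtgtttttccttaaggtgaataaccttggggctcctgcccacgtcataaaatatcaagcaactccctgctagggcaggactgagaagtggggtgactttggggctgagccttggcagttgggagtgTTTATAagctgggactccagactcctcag

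Fabp2 had 1 caudal-type match, TTTATTG, with its first base 65 bases before the start, and neither of the other motifs. Fabp1 had 3 caudal-type matches, 2 matches to AGGTCA and a TATA box 30 bases before the start, and Fabp6 had a match to the TATA box letters on the opposite strand 29 bases before it. Of 32536 distinct windows of this length, 12.3% held TATAAA, 9.74% held TTTATNG and 14.0% held AGGTCA, and the first of these motifs can share bases with the second, as in Apob. Of the 8 members with a window in the table, 3, 3 and 2 held them. Fabp4 and Fabp5 have no entry. A match is a description of letters and shows no binding. Cdx2 itself, an intestinal identity factor named here after its values were seen, was at 9.44 and 9.48 in hBD-2 1 and 3 and at 10.11 to 10.35 in the other 6 mice, with a group difference of -0.30 (SE 0.19, adjusted p = 0.568 by limma) that turned to 0.10 without the pair. Cdx1, another caudal-type factor named after its values were seen, was not lower in the pair. It was at 9.75 and 9.96 there and at 9.52 to 9.75 in the other 6 mice. Whether either factor bears on the Fabp2 values was not tested.

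Fabp1 and Fabp6, the other binding proteins of absorptive cells, did not split the mice as Fabp2 did. The SD of Fabp1 over the 8 mice was above that of 11.6% of genes, and that of Fabp6 above 64.7%. Fabp1 lay between 3.27 and 3.39 in PBS and between 3.29 and 3.52 in hBD-2 mice, near the lowest value in the whole table, 2.76. Its probe set had a higher mean than 2.1% of genes, a position that depends on the probes and does not give an amount of RNA, so a change in Fabp1 could be missed. Fabp6 was at 4.02, 3.98, 4.15 and 4.27 in PBS mice 1 to 4 and at 4.49, 4.18, 4.38 and 4.37 in hBD-2 mice 1 to 4. All hBD-2 mice but hBD-2 2 lay above all PBS mice. The probe set of Fabp6 had a higher mean than 14.2% of genes, so a fall in Fabp6 could be missed too. The difference was 0.25 (SE 0.093, 95% interval 0.040 to 0.46, adjusted p = 0.344 by limma), with an SD of 0.13 in each group, and 0.17 with hBD-2 1 and 3 left out. Bile acid genes that act with Fabp6 in the ileum were also read. Slc10a2, the uptake transporter, was at 0.52 (SE 0.34) and Fgf15, the hormone induced by bile acids, at 0.13 (SE 0.091). The export subunits Slc51b and Slc51a were at 0.068 (SE 0.12) and 0.39 (SE 0.51). None of these passed, and the single values of Slc51a are given below.

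Fabp5, a fatty acid binding protein of macrophages, endothelium and stratified epithelia, had the lowest p of the members. It was at 7.03, 7.34, 7.12 and 7.40 in PBS mice 1 to 4. In hBD-2 mice 1 to 4 it was at 6.09, 6.43, 6.45 and 6.96. The groups did not overlap, although hBD-2 4 came close to PBS 1. The means were 7.22 ± 0.18 and 6.48 ± 0.36 (SD, n = 4 each), and the difference of -0.74 (SE 0.17, 95% interval -1.11 to -0.37) was 2.09 times the larger SD. It ranked 152 of 19505 genes by p and did not pass (adjusted p = 0.141 by limma). The two-sided exact permutation p of the mean difference was 0.0286, the smallest that 4 against 4 mice allow. With hBD-2 1 and 3 left out the difference was -0.53 (adjusted p = 0.254 by limma).

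The profiles closest to that of Fabp5 were those of Itgax, an integrin of myeloid cells (root mean square difference 0.13), Ptafr, the receptor for platelet-activating factor (0.16), and Serpinh1, a collagen chaperone (0.19). Macrophage markers moved the same way. Of 11 listed 9 were measured, all 9 were lower in hBD-2 mice, 7 of them at an unadjusted p under 0.05 and none past the threshold, and their centred mean ran from 0.10 to 0.39 in PBS and from -0.38 to -0.11 in hBD-2 mice, without overlap. Fibroblast markers also ran lower, at 0.21 to 0.36 in PBS and -0.39 to 0.009 in hBD-2 mice, with all 7 measured lower at an unadjusted p under 0.05 and none past the threshold. Of 9 capillary endothelial markers, 4 were lower at that level (Pecam1, Cdh5, Kdr and Emcn) and 1 was higher (Aqp7), and none passed. These 5 were named after their values were seen. Over all genes, 5.98% were lower and 5.85% higher at an unadjusted p under 0.05 (limma). The part of these cell types in the Fabp5 difference was not tested, and in whole tissue fewer cells of a type and less RNA per cell cannot be told apart.

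Fabp4, the adipocyte fatty acid binding protein, was at 8.86, 8.62, 8.70 and 8.73 in PBS mice 1 to 4 and at 7.98, 8.63, 8.54 and 8.40 in hBD-2 mice 1 to 4. The PBS mice lay close together (SD 0.10), while the hBD-2 mice spread further (SD 0.29) and overlapped with them only through hBD-2 2. The difference was -0.34 (SE 0.13, adjusted p = 0.352 by limma) and -0.21 without hBD-2 1 and hBD-2 3. Adipocyte markers did not separate the groups, since the centred mean of the 6 measured, Adipoq and Lep among them, ran from -0.52 to 0.23 in PBS and from -0.49 to 0.29 in hBD-2 mice. It was lowest in PBS 2 and hBD-2 1. The list mean of the 9 capillary endothelial markers ran from 0.002 to 0.11 in PBS and from -0.23 to 0.11 in hBD-2 mice, although Cdh5 (-0.48) and Emcn (-0.35) were lower in hBD-2 without overlap. The macrophage list mean, given with Fabp5, was lower in every hBD-2 mouse than in every PBS mouse. The part of these 3 cell types in the Fabp4 values was not tested. Fabp4 and Fabp5 lie in a cluster on chromosome 3 with Pmp2, Fabp9 and Fabp12 (RefSeq gene order, GRCm38.p6). These neighbours differed by 0.024 (SE 0.13), 0.016 (SE 0.19) and 0.000 (SE 0.11), none of which passed. Their probe sets read low, with means of 3.53, 3.70 and 3.80 in PBS mice, so a change in them could be missed.

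Plin2, the main coat protein of lipid droplets outside fat tissue, was at 9.36, 8.96, 9.34 and 9.01 in PBS mice 1 to 4 and at 8.88, 9.12, 8.92 and 8.88 in hBD-2 mice 1 to 4. PBS 1 and PBS 3 were the highest, and hBD-2 2 overlapped with the PBS group. The difference was -0.22 (SE 0.11, 95% interval -0.47 to 0.025, adjusted p = 0.468 by limma). Its spread went the other way from that of most members, with an SD of 0.21 in PBS and 0.11 in hBD-2 mice.

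The apolipoproteins and Mttp showed no difference beyond the spread between mice. Apoa1, the main protein of high-density lipoprotein, was at 5.57 to 6.03 in PBS and 5.71 to 6.24 in hBD-2 mice, a difference of 0.12 (SE 0.14, 95% interval -0.19 to 0.42). Apoa4, a chylomicron protein made by enterocytes, was at 6.44 to 6.87 and 6.74 to 7.05, a difference of 0.15 (SE 0.11, 95% interval -0.094 to 0.40). Apob, the structural protein of chylomicrons, stayed between 5.43 and 5.72 in all 8 mice and differed by 0.065 (SE 0.075, 95% interval -0.10 to 0.23). Adjusted p-values of these 3 genes were 0.768, 0.616 and 0.768 (limma). In the chromosome 9 cluster that holds Apoa1 and Apoa4, the neighbours Apoc3 and Apoa5 differed by 0.21 (SE 0.11) and 0.35 (SE 0.16), neither past the threshold. Without hBD-2 1 and hBD-2 3, Apoc3 was at 0.13, Apoa5 at 0.64, Apoa1 at 0.31 and Apoa4 at 0.24. With single arrays left out, Apoa1 ran from 0.014 (without hBD-2 4) to 0.19 and Apoa4 from 0.070 (without PBS 2) to 0.21.

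Mttp, which loads triglyceride onto Apob, had the second widest spread in PBS mice among the members. It was at 4.82 and 4.84 in PBS 1 and PBS 2 but at 5.48 and 5.45 in PBS 3 and PBS 4, and at 5.67, 4.75, 5.38 and 5.38 in hBD-2 mice 1 to 4. Low and high mice thus occurred in both groups (SD 0.37 and 0.39), and the difference was 0.14 (SE 0.22, 95% interval -0.33 to 0.62) and -0.087 without hBD-2 1 and hBD-2 3. Mttp and Apob, partners in chylomicron assembly, had a root mean square difference of 0.32. Apob hardly varied, with an SD of 0.084 over the 8 mice against 0.36 for Mttp. The value therefore cannot tell whether the profiles of Mttp and Apob share a shape. The profiles nearest to Mttp were Tnnt2 (0.15), Dlk1 (0.16) and Tnni1 (0.17), and those nearest to Fabp4 were Rhox13 (0.081), Rassf9 (0.11) and Dync2li1 (0.11). They were picked as the closest of 18462 genes over only 8 arrays. Tnnt2, at 4.23 to 5.03, and Rhox13, at 4.18 to 4.82, read low beside array medians of 6.77 to 6.82.

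**Figure D3:**
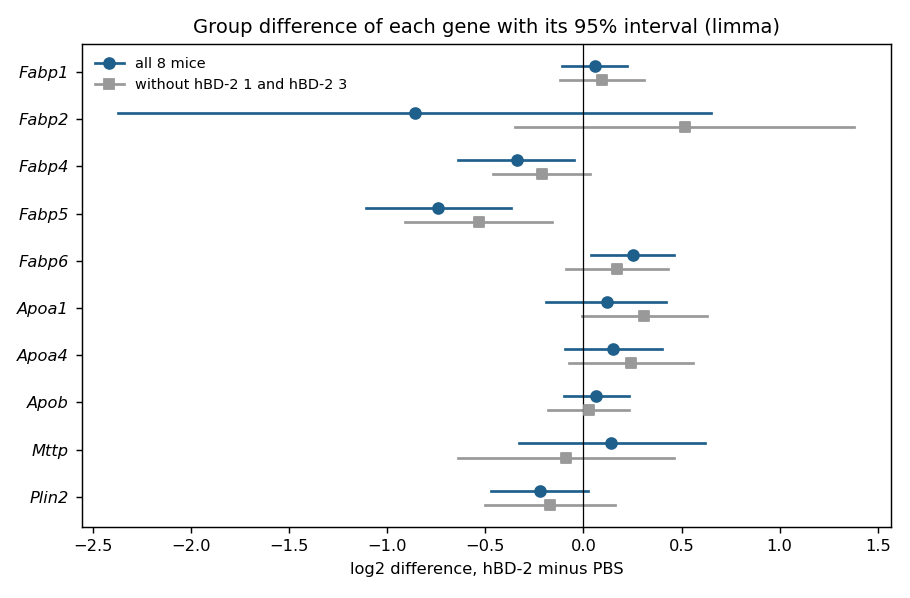
The log2 difference, hBD-2 minus PBS, of each gene with its 95% interval from limma, over all 8 mice (blue circles) and without hBD-2 1 and hBD-2 3 (grey squares). The Fabp2 interval is the widest, from -2.37 to 0.65, and its estimate turns from -0.86 to 0.52, while Fabp5 lies below 0 in both settings.

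Spread within the groups was larger in hBD-2 than in PBS mice for 7 of the 10 members, which held for 56.6% of all genes. The exceptions were Fabp6, Apoa4 and Plin2. The SD in hBD-2 mice was over 2 times that in PBS mice for Fabp2 and Fabp4, as in 19.5% of all genes. The members had a median SD of 0.189 (PBS) and 0.194 (hBD-2), beside 0.125 and 0.139 over all genes. Within PBS the members ranged from Apob at 0.067 and Fabp1 at 0.054, below most genes, to Mttp at 0.37, above 98.5% of genes, and Fabp2. Without hBD-2 1, the larger SD was in hBD-2 for 5 members.

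**Figure D4:**
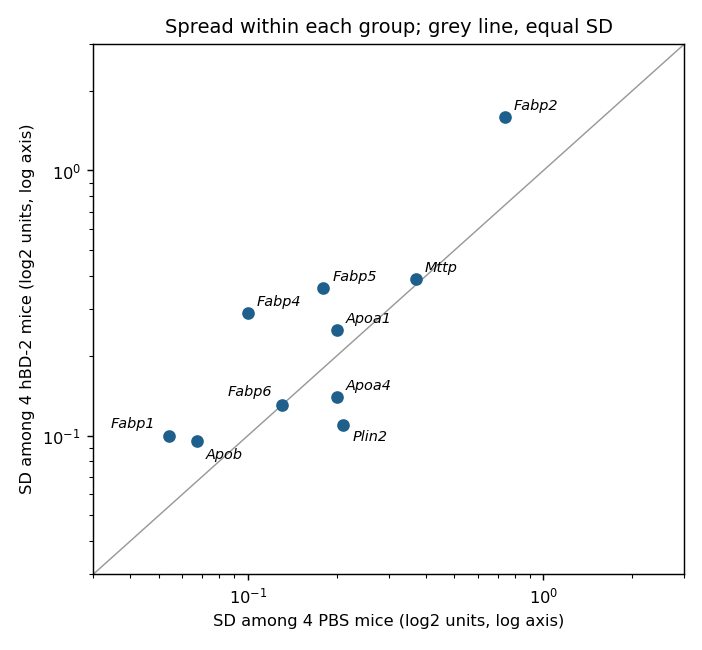
The SD among the 4 hBD-2 mice against the SD among the 4 PBS mice for each gene, in log2 units on log axes, with a grey line where both are equal. Fabp2 lies far from the other genes, at 0.74 and 1.59, and Apoa4 and Plin2 lie below the line.

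Of the other genes of lipid absorption and handling, 120 in 8 lists, 106 were measured and none passed. At an unadjusted p under 0.05, 7 were lower and 13 higher, against 5.98% and 5.85% of all genes, and their median difference was 0.015. The groups did not overlap for 4 genes lower in hBD-2 (Cd36, Mgll, Lipe and Nr1h3) and 4 higher (Agpat1, Hnf4g, Cdx1 and Ppargc1a) of the 106, near the 3.60% and 2.80% of all genes. Cdx1, at 0.21 (SE 0.081), and Ppargc1a, at 0.75 (SE 0.25) or 0.26 without hBD-2 1 and 3, were named after their values were seen. In fatty acid uptake and activation (13 measured, 2 lower and 1 higher at that level), Cd36, a fatty acid transporter and scavenger receptor, was at -1.06 (SE 0.21), and Slc27a2, a fatty acid transport protein, at 0.52 (SE 0.20), or 0.21 without hBD-2 1 and hBD-2 3. Slc27a2 read low, with means of 4.07 in PBS and 4.59 in hBD-2 mice. In lipid droplet coat and lipolysis (17 measured, 2 lower and 1 higher), Mgll, monoglyceride lipase, was at -0.48 (SE 0.12) and Lipe, hormone-sensitive lipase, at -0.31 (SE 0.093). The adjusted p-values of Cd36, Mgll and Lipe were 0.104, 0.178 and 0.236 (limma).

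In chylomicron assembly and export, 9 of the 16 measured genes were lower and 7 higher, with a median difference of -0.016. All 3 with an unadjusted p under 0.05 were higher, beside 5.85% of all genes. They were Cideb, a droplet protein that helps to lipidate Apob particles, at 0.38 (SE 0.11), Tm6sf2, a membrane protein of lipoprotein export, at 0.56 (SE 0.20), and A1cf, a cofactor of Apob mRNA editing named after its values were seen, at 0.26 (SE 0.12). In triglyceride synthesis (14 measured, 2 higher), Agpat1, an acyltransferase, was at 0.17 (SE 0.064) and Lpin3, a phosphatidate phosphatase, at 0.20 (SE 0.083). Among the other apolipoproteins (12 measured, 1 lower and 2 higher), Apof was at 0.47 (SE 0.16) and Apod at -0.51 (SE 0.22), the second at -0.17 without hBD-2 1 and hBD-2 3. Apof read low, with means of 3.45 in PBS and 3.91 in hBD-2 mice. Of the other intracellular lipid binding proteins (9 measured, none at that level), Fabp3 was at -0.21 (SE 0.12), or -0.024 without that pair, and the retinol binding protein Rbp2 at 0.20 (SE 0.13), or 0.34 without it.

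Sterol and bile acid transport genes (13 measured, 1 lower and 2 higher) included the sterol export partners Abcg8 at 0.33 (SE 0.10) and Abcg5 at 0.30 (SE 0.11), the second at 0.13 without hBD-2 1 and hBD-2 3. Abcg8 read low, with means of 3.94 in PBS and 4.26 in hBD-2 mice. Slc51a, the other subunit of the bile acid exporter, was named after its values were seen. It lay at 5.18 and 5.28 in hBD-2 1 and 3 and at 7.49 and 6.93 in hBD-2 2 and hBD-2 4, with 6.35, 6.31, 5.21 and 5.44 in PBS mice 1 to 4. As with Fabp2, the hBD-2 mice fell into low and high values, but PBS 3, high in Fabp2, was low in Slc51a. Among 13 measured regulators (1 lower and 3 higher), Hnf4g, a nuclear receptor of the intestinal epithelium, was at 0.45 (SE 0.11) and Nr1h3, the oxysterol receptor LXR alpha, at -0.38 (SE 0.095), both without overlap between the groups and with adjusted p-values of 0.160 and 0.177 (limma). Hnf4a, which is known to drive many genes of the set, was at 0.010 (SE 0.068).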

How the data were processed

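RNA of unseparated colon tissue was labelled with a kit for small amounts of RNA and hybridised to Affymetrix arrays, 1 per mouse, per the labels' protocols. The deposited table holds log2 values of 22203 probe sets. RMA and oligo are named, without versions, in the submitters' processing notes. The array's genome build and any filters are not given in the sources used here. Of these, 19572 had 1 gene in the platform's annotation, all found in RefSeq (GRCm38.p6) by gene identifier, and 2631 had no name here. The probe set with the highest mean stood for a gene, which gave 19505 genes. Array medians lay between 6.77 and 6.82, and no 2 arrays were identical.

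Groups came from sample titles. The log2 values were tested in R 4.3.3 with limma 3.58.1 (lmFit, eBayes), two-sided, adjusted over all genes by Benjamini-Hochberg at 0.05. Replicates are separate mice per the labels, so p-values measure the spread between mice. The script was tested on 10 simulations of 19505 genes, 200 of them changed. It found 50.9%, 93.3% and 99.2% of changes of 0.5, 1.0 and 2.0 log2 units, and 5.63% of its calls were false. Whether such changes would be found in a gene that varied as widely as Fabp2 was not tested. The members and lists were chosen with earlier results of these data known. Named genes were the members, the 2 with the lowest p in each pathway list, and the 3 closest profiles of each member with an SD over the 8 arrays in the top 10% of genes. Promoter windows are from RefSeq (GRCm38.p6), which held 8 members. Marker lists of the small intestinal enterocyte, hepatocyte and pancreatic acinar cell were also scored. Their centred means ran from -0.066 to -0.033, from -0.16 to 0.12 and from -0.12 to -0.021 in PBS, and from -0.11 to 0.20, from -0.12 to 0.19 and from -0.033 to 0.13 in hBD-2 mice. The ileal list ran from -0.36 to 0.13 and from -0.015 to 0.22. The enterocyte list mean hides single genes, named after their values were seen. In hBD-2 1 and hBD-2 3, Alpi, Anpep and Enpep lay below all other mice, and Slc5a1 and Slc15a1 above them. Alpi was at 7.48, 7.34, 7.49 and 6.29 in PBS mice 1 to 4 and at 6.25, 8.48, 6.11 and 7.79 in hBD-2 mice 1 to 4. Figures used matplotlib 3.10.9. The alternatives tried were a robust prior with an intensity trend, filters on dim probe sets, other scalings, averaged probe sets, a block for replicate number, array weights, omission of each array, a threshold of 0.1, and, added after the data were seen, leaving out hBD-2 1 and hBD-2 3.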

Additional observations from a re-analysis of the deposited data

How the results depend on the processing

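No member passed under any of the alternatives run. The differences of the 10 members kept their direction in 159 of 161 values. The 2 that turned were Fabp2 (0.52) and Mttp (-0.087) without hBD-2 1 and hBD-2 3. With single arrays left out, Fabp2 ran from -1.33 to -0.36 and Fabp5 from -0.90 to -0.61, and the adjusted p of Fabp5 ran from 0.060 to 0.371 over its alternatives. A filter on the dimmest 25% of probe sets removed Fabp1 and Fabp6, and one on the dimmest 50% removed 7 members, Fabp5 among them. The members whose groups did not overlap numbered 1 to 4 with single arrays left out: Fabp5 in each, with Fabp4 without PBS 2, Fabp6 without PBS 4, and Fabp4, Fabp6 and Plin2 without hBD-2 2. The members with a larger SD in hBD-2 ran from 5 to 9. Over all genes the 8 calls became 91 with an intensity trend and robust prior, 16 and 47 under the filters on the dimmest 25% and 50%, 4 with quantile normalization repeated, 68 with array weights and 81 at a threshold of 0.1. They became 0 without hBD-2 1 and hBD-2 3 (limma, 2503 at an unadjusted p under 0.05), and 0 to 11 with single arrays left out (1678 to 2771 at an unadjusted p under 0.05). The cause of these changes was not tested. The replicate block gave 0 genes (limma, 2566 at an unadjusted p under 0.05), no member passed with it, and the deviations of mice of the same number correlated at -0.15, 0.14, 0.24 and 0.045, so the numbers were not taken to pair the mice.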
